A study of Drosophila melanogaster with 4 samples.

Results

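Stat92E is the STAT factor through which the JAK/STAT pathway of Drosophila regulates transcription, and the peaks described here are those of its GFP-tagged form on the X chromosome and on chromosome 4, the dot chromosome. They were taken as every entry of the deposited peak list that lies on X or on 4. This gave 232 of 2380 peaks, 164 on X and 68 on 4. The 483 peaks of the autosomal arms 2L, 3L and 3R served as background. Peaks on any other sequence of the list were not used, so the background is not all of the autosomes.

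The study precipitated chromatin from Drosophila melanogaster embryos with a rabbit polyclonal antibody against GFP (ab290) and sequenced it (ChIP-seq). All 4 libraries, 2 of precipitated DNA and 2 of input DNA, carry the labels of the strain Stat92E-GFP, embryos of 12 to 24 h, the genotype PBac{y[+]-attP-3B}VK00037 and a transgene described as the Stat92E genomic coding region. The labels do not say whether the endogenous Stat92E gene was intact, no untagged strain is among the groups, and the protocol text names a different line, y; bw cn sp. Whole embryos were used, so a peak can come from any of their tissues. The files hold 1 list for the series with no value per library. Depth per library and spread between replicates are therefore unknown here, and nothing below has a replicate error or a test between libraries. Intervals are exact 95% intervals, apart from approximate ones for the correlations of score with width. They cover counting error only and treat peaks as independent.

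In the JAK/STAT pathway, secreted ligands of the Unpaired family bind the receptor Domeless, the kinase Hopscotch is activated, and Stat92E is phosphorylated, enters the nucleus and binds a short palindromic DNA site. In embryos the pathway is known for segmentation and for shaping the trachea, gut and gonad. Much of the upstream pathway is X-linked. Of 12 pathway genes listed for this work, 6 are on X in the release 6 gene table: upd1, upd2 and upd3 (the ligands), dome (the receptor), et (a shortened relative of the receptor that dampens signalling) and hop (the kinase). None of the 12 is on 4. The X and chromosome 4 are also the chromosomes with their own chromosome-wide regulators in the fly. In males the MSL complex coats the X and raises its transcription, while chromosome 4 is bound by the protein POF and by HP1, and its genes lie among heterochromatin-like repeats. The peak coordinates are those of FlyBase release 5, and the gene table is of release 6, so no peak was joined to any of these genes and no sequence under a peak is shown.

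Chromosome 4 carried peaks at a far higher density than X, and they were of similar width. The 164 peaks of X ran from position 46198 to 22422798, a span of 22.4 Mb, at 7.33 peaks per Mb. The 68 peaks of 4 ran from 63124 to 1348137, a span of 1.29 Mb, at 52.9 peaks per Mb. The density of 4 was 7.22 times that of X (exact interval 5.36 to 9.64). The background arms had 7.45 peaks per Mb on 2L, 5.84 on 3L and 6.06 on 3R, and X was 1.14 times as dense as these 3 arms together (0.952 to 1.37), an interval that includes 1. Peaks covered 84.1 kb of X, or 0.376% of its span, and 30.8 kb of 4, or 2.40%. The covered share was 0.259% on 3L and 0.258% on 3R. On 2L it was 0.792%, a value that includes a dense stretch of 25 peaks between 21405663 and 21573898. That stretch is the only one of the 3 background arms with 10 or more peaks within 100 kb. Background values are given below with it and, over the remaining 458 peaks, without it. No such stretch was removed from X or 4, although on 4 the window from 200001 to 300000 alone held 10 peaks.

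**Figure D1:**
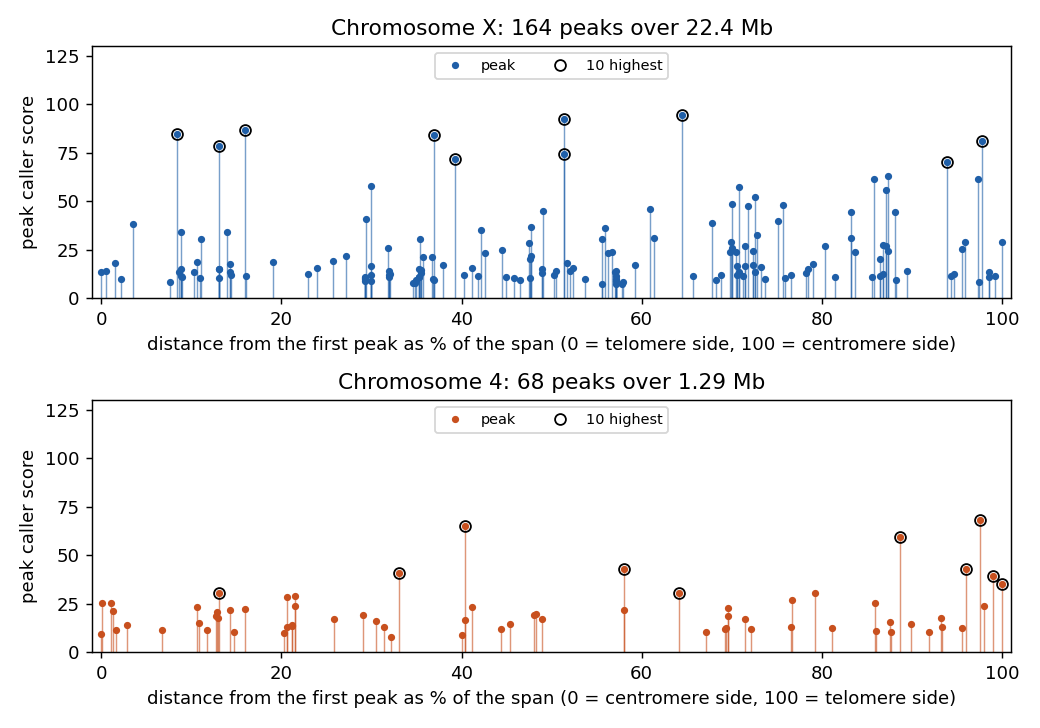
Peak caller score (vertical axis, no unit) of each of the 164 peaks of X and the 68 peaks of chromosome 4, against distance from the first peak as a percent of the span; open circles mark the 10 highest of each chromosome. High peaks of X are scattered along its length up to 94.39, while 5 of the 10 highest of chromosome 4 stand at its right end.

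The higher density of 4 was also seen among peaks with scores above 30, and its precision fell for the strongest peaks. The score is the value the authors' peak caller gave each peak. Its scale is not stated, so scores are compared only within the list. A ratio of scores cannot be read as a fold difference in binding. Scores above 30 were held by 39 peaks of X and 11 of 4, or 1.74 and 8.56 per Mb, a ratio of 4.91 (2.27 to 9.78). Scores above 50 were held by 17 peaks of X and 3 of 4, a ratio of 3.07 whose interval, 0.577 to 10.6, includes equal densities. Above 70 there were 9 peaks on X and 0 of 68 on 4, which allows a share of up to 4.41% there by the limit of 3 counts and 5.28% by the exact interval, against 5.49% on X (2.54 to 10.2%). Whether 4 lacks the strongest class of peak was thus not detectable with 68 peaks.

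The strongest site of X lay alone. It was the peak from 14476991 to 14477851 (861 bp, score 94.39), with 692 kb free of peaks to its left and 256 kb to its right. Of the background, 16 of 483 peaks scored higher, or 7 of 458 without the dense stretch of 2L. The second and the eighth strongest were neighbours 83 bp apart, at 11539261 to 11540828 (1568 bp, score 92.18) and 11540912 to 11542253 (1342 bp, score 74.05). Together they covered 97.2% of 2993 bp, and they were the strongest of all peaks of X or 4 with another within 1 kb.

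Next on X came 4 peaks with scores from 80.81 to 86.7. The peak at 3621126 to 3623983 scored 86.7 and was the widest of the chromosome at 2858 bp. The peak at 1936201 to 1936937 (737 bp) scored 84.82 and the one at 8315164 to 8315857 (694 bp) scored 84.11. The peak at 21924565 to 21927194, 2630 bp wide and 496 kb from the last peak on the centromere side, scored 80.81. These 4 differ more in width than in score.

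The remaining 3 of the 10 highest of X were at 2964611 to 2967190 (2580 bp, score 78.53), 8821722 to 8823850 (2129 bp, score 71.84) and 21044053 to 21044616 (564 bp, score 69.98). The last of these is the first peak after the longest stretch of X without a peak. The score of the eleventh peak was 62.81. Of these 10 peaks, 6 had no other peak within 10 kb, against 103 of all 164 peaks of X.

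Chromosome 4 had lower maxima than X, and 5 of its 10 highest peaks stood at its right end, the telomere side. Its highest peak, at 1316299 to 1317049 (751 bp), scored 68.18, a value that 35 background peaks exceeded, or 14 without the dense stretch of 2L. The next were the peak at 582281 to 583242 (962 bp, score 65.06) and the one at 1202176 to 1202841 (666 bp, score 59.6). Below them the scores dropped to 43.05 at 1297012 to 1297741 and 42.93 at 808974 to 809605. The rest of the 10 highest were at 487394 to 488246 (score 40.82), 1334260 to 1335151 (39.35), 1347277 to 1348137 (35.45), 229974 to 231234 (30.8) and 887602 to 887958 (30.72). The eleventh scored 30.54, close below the tenth.

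The last 150 kb of 4 held 11 of its 68 peaks and 5 of its 10 highest. Their median score was 23.9, and that of the other 57 peaks was 17.0. The very last peak, with a score of 35.45, is also one of these 5. The stretch of 150 kb was chosen after the positions were seen, and the higher median depends on it. The last of 5 equal segments of the span holds the same 5 high peaks among 16, with a median score of 16.7. The first segment, on the centromere side, had 17 peaks, a median of 18.8 and a maximum of 30.8. The last segment thus held 5 of the 10 highest peaks without a higher median. The rest of the 10, among them the second highest, lay elsewhere along 4, and no interval was computed for this share.

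Along X, peaks were spread over the whole span, and the median score was higher on the centromere side. The 10 highest peaks were not concentrated there. Its 5 equal segments, from telomere to centromere, held 27, 34, 39, 34 and 30 peaks. The median score was 14.8, 12.7 and 14.0 in the first 3 segments and 20.6 and 24.6 in the last 2. Pooled, the 100 peaks of the first 3 segments had a median of 13.8 (exact interval 12.6 to 15.6) and the 64 of the last 2 had 23.8 (15.0 to 27.2). The intervals overlap slightly. Scores above 30 were held by 19 of the former (19.0%, 11.8 to 28.1%) and 20 of the latter (31.2%, 20.2 to 44.1%), again with overlapping intervals. Median widths were 361.5 bp and 470 bp.

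The same split on 3L gave medians of 14.1 and 15.0, and on 3R, whose coordinates start at the centromere, 14.4 and 15.6. On 2L, which like X runs towards the centromere, it gave 13.3 and 27.3, or 16.1 in the last 2 segments without the dense stretch. Across the 164 peaks of X the Spearman correlation of position with score was 0.158, a weak relation given as a description. The split after the third segment was chosen after the values were seen. Of the 10 highest peaks, 7 lie in the first 3 segments, which hold 100 of the 164 peaks, and 3 in the last 2. The 10 highest were thus split much as all peaks of X were.

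On 4 the segments held 17, 13, 11, 11 and 16 peaks, fewest in the middle, and median scores ran from 16.0 to 19.2 without an order. The exact intervals of these 5 medians all overlap. Position and score had a Spearman correlation of 0.139 over the 68 peaks.

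**Figure D2:**
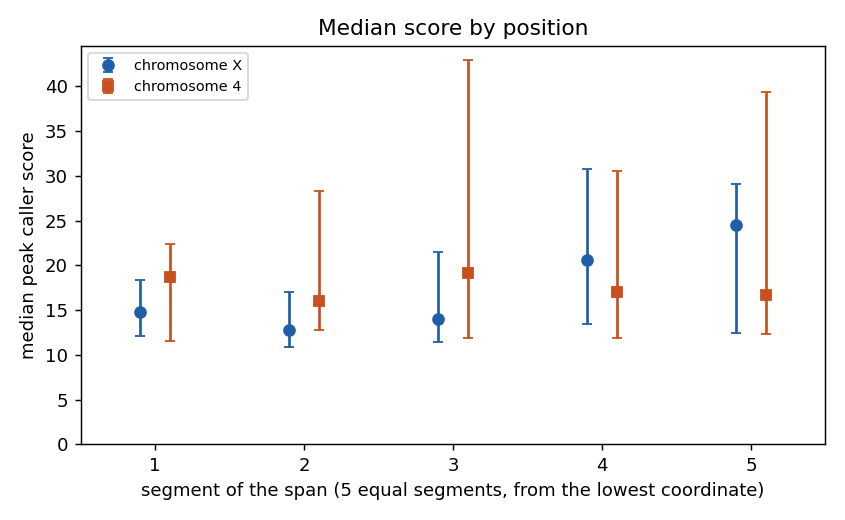
Median peak caller score in each of 5 equal segments of the span of X (circles) and chromosome 4 (squares), from the lowest coordinate; bars are exact order-statistic intervals of at least 95%. The medians of X are 20.6 and 24.6 in the last 2 segments and at most 14.8 before, and those of chromosome 4 lie between 16.0 and 19.2.

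Windows of 1 Mb showed how uneven X was. The 23 windows held from 1 to 14 peaks with a median of 6, and none was empty. The fullest were 7000001 to 8000000 and 12000001 to 13000000 with 14 peaks each, followed by 15000001 to 16000000 with 13. The first of these windows had a median score of 12.2 and the second of 10.7, while the third reached 23.5. A full window was thus not always a strong one. In all, 6 windows of X held 12 or more peaks, against 2 of 23 on 2L, 1 of 25 on 3L and 2 of 28 on 3R. This count depends on the bound, since the X windows starting at 2000001, 16000001 and 19000001 held exactly 12. With peaks up to 1 kb apart joined, these held 11, 10 and 11, and the window from 12000001 fell from 14 to 11. The X windows from 7000001 and 15000001 still held 12 each. On 3R the window from 27000001 fell from 12 to 6.

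Chromosome 4 was divided into 14 windows of 100 kb, which held from 0 to 10 peaks with a median of 5. The fullest was 200001 to 300000 with 10, then 300001 to 400000 with 8, and 7 peaks each were found in 900001 to 1000000 and 1200001 to 1300000. The window from 700001 to 800000 was empty. It lies in the longest stretch of 4 without a peak, 116 kb from 692007 to 808279, which is 9.05% of the span. The next longest were 89.7 kb from 488247 to 577969 and 78.0 kb from 809606 to 887601.

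The longest stretches of X without a peak were several times longer in bases and smaller as a share. They were 990 kb from 20053642 to 21044052 (4.43% of the span), 913 kb from 830097 to 1743524, and 868 kb from 4319421 to 5187793. The longest of 2L, 3L and 3R were 1229, 1445 and 1604 kb. The shared lower end of the gaps was close to 50 bp: the smallest was 54 bp on X, 50 bp on 4, and 50 to 54 bp on the background arms.

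Spacing on 4 was tighter in bases and much like that of X once scaled by density. The median gap from the end of a peak to the start of the next was 70.0 kb on X (exact interval 51.5 to 100.0 kb) and 10.7 kb on 4 (5.54 to 15.4 kb). It was 36.9 kb on 2L, 88.6 kb on 3L and 92.7 kb on 3R. Divided by the mean gap, the median was 0.512 on X and 0.570 on 4, beside 0.515 on 3L, 0.560 on 3R and 0.275 on 2L. By this ratio, which has no interval here, the gaps of 4 were like those of X, 3L and 3R at a smaller scale. Gaps over 100 kb made up 41.7% of those on X (34.1 to 49.7%) and 1.49% of those on 4, where only 1 of 67 was so long.

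**Figure D3:**
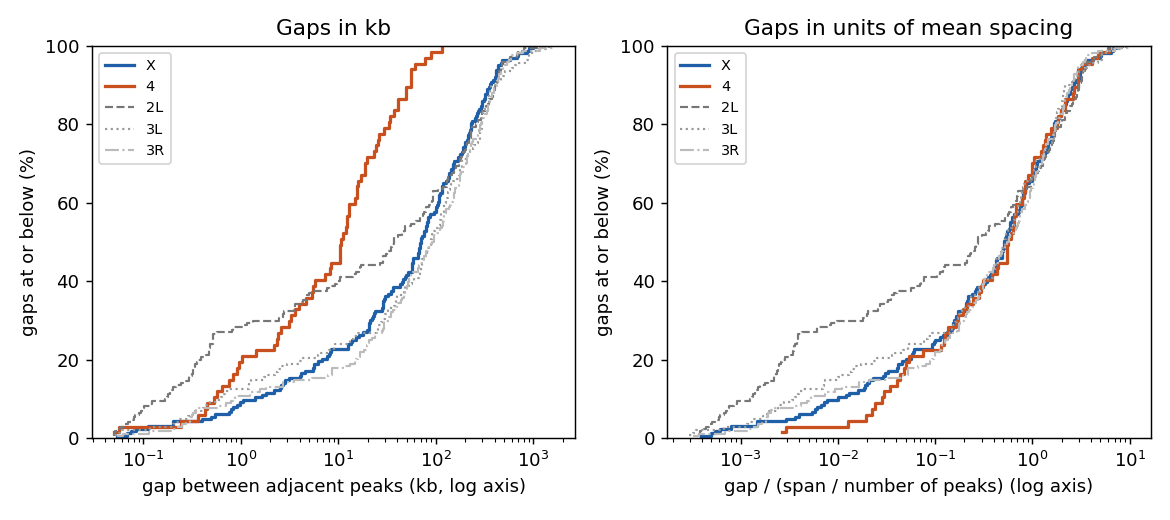
Cumulative share of gaps between adjacent peaks (vertical axis, percent) against gap length in kb (left) and in units of the mean spacing of each chromosome (right), both on log axes, for X, 4, 2L, 3L and 3R. In kb the curve of 4 lies left of that of X, with medians of 10.7 and 70.0 kb, and in scaled units the curves of X, 4, 3L and 3R run together in their upper part.

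Close neighbours made up a larger share of the peaks on 4 than on X in bases, and a similar share in units of spacing. Another peak lay within 1 kb of 26 of 68 peaks on 4 (38.2%, 26.7 to 50.8%) and of 27 of 164 on X (16.5%, 11.1 to 23.0%). The background share was 27.7% (23.8 to 32.0%), or 24.5% without the dense stretch of 2L. By arm it was 41.5% on 2L, above that of 4, then 24.5% on 3L, and 16.6% on 3R, just above that of X. Within 5% of the mean spacing, which is 6.82 kb on X and 0.945 kb on 4, the shares were 34.1% (26.9 to 41.9%) and 35.3% (24.1 to 47.8%). On 2L, 3L and 3R they were 54.4, 41.3 and 24.3%. This scaled distance was added after the data were seen. Within 10 kb the shares were 37.2% on X and 69.1% on 4, and every peak of 4 had another within 100 kb.

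The close groups of 4 were all pairs, and pairs were also the commonest close group on X and on each background arm. On 3L there were 16 pairs and 1 group of 3. With gaps of up to 1 kb joined, its 68 peaks fell into 42 single peaks and 13 pairs. X had 137 single peaks, 10 pairs, 1 group of 3 and 1 group of 4. The pairs had a median length of 1400 bp on 4 and 1601.5 bp on X from first start to last end, and a median gap of 531 and 622 bp between their members. The higher score of a pair was a median of 1.72 times the lower on 4 and 1.40 times on X, beside 1.46 on 2L, 1.56 on 3L and 1.41 on 3R. The higher-scoring member was also the wider in 9 of 13 pairs on 4 and 9 of 10 on X.

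The most unequal pair of 4 was at 581792 to 583242. A peak of score 16.41 was followed, 56 bp later, by the second highest peak of the chromosome with 65.06. At 808280 to 809605 the members scored 21.78 and 42.93, lay 50 bp apart and covered 96.2% of the stretch. Such gaps of under 100 bp numbered 2 on 4 and 4 on X. The pair at 226473 to 227872 was among the most even, with scores of 18.75 and 20.55.

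The groups of 3 and 4 on X were of unlike strength. The group of 3, at 10708356 to 10710045, covered 92.8% of 1690 bp with gaps of 54 and 67 bp and scores of 10.29, 19.89 and 36.7. The group of 4, at 12825487 to 12827672, had scores from 7.25 to 11.41, and its weakest member was the lowest of all 164 peaks of X. Another peak followed 1047 bp later with 13.97. These 5 made up the largest group of X with gaps of up to 10 kb, 3497 bp in length. It had no member above the median score of X, 15.3.

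On 4 the largest group with gaps of up to 10 kb had 7 peaks, at 324064 to 339951. It was 15.9 kb long, 16.3% covered, and its scores ran from 10.02 to 29.24. It contained 3 of the 13 pairs. There were 3 groups of 4 peaks. The one at 226473 to 231234 held 2 pairs in 4762 bp, with the widest peak of the chromosome (1261 bp, score 30.8) as its last member. The one at 577970 to 592049 held the second highest peak of 4, with scores from 8.94 to 65.06. In the one at 952072 to 957426 scores ran from 11.93 to 22.6. At this distance 38 groups and single peaks remained on 4 and 127 on X.

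Peaks with a close neighbour had scores in the range of the others. On X their median was 13.2 (10.7 to 20.0, n = 27), against 15.6 (13.8 to 19.2, n = 137) for the others. On 4 it was 18.7 (14.2 to 25.1, n = 26) against 16.4 (12.6 to 21.0, n = 42). The intervals overlapped on both chromosomes. No other peak lay within 10 kb of 24 of the 39 peaks of X above 30 (61.5%), much the share over all peaks of X, 62.8%. On 4 this held for 6 of 11 (54.5%, 23.4 to 83.3%), against 30.9% over all its peaks (20.2 to 43.3%).

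Score classes were set at the quartiles of the background, 11.14, 15.03 and 26.995, so that each class held about 25% of the background peaks. X filled them evenly, with 23.8, 25.6, 23.8 and 26.8% of its peaks from the lowest class to the highest. Chromosome 4 was thin in the lowest class, with 13.2% (6.23 to 23.6%), and held 39.7% in the third (28.0 to 52.3%). Its highest class held 20.6% (11.7 to 32.1%). Scores of 4 were also less spread than those of X: its interquartile range was 12.6 to 24.3, inside that of X at 11.3 to 28.7. The background arms lay to either side of 4 in spread, with 11.2 to 36.7 on 2L, 11.1 to 19.7 on 3L and 11.2 to 24.7 on 3R. The median of 4, 17.5, was above the 15.3 of X. The exact intervals of the medians, 14.7 to 21.0 and 13.7 to 18.2, overlapped. At the upper cut, the nearest peaks of X scored 26.94 and 27.18, and those of 4 scored 25.5 and 27.09.

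The dense stretch of 2L raised the upper cut. Without it the cut was 23.6, and the highest class then held 34.1% of the X peaks (26.9 to 41.9%). The background share there, 25.1%, is set by the cut and lies below that interval. The interval does not count the error of the cut itself. The share of 4 in that class was 27.9% (17.7 to 40.1%). For 4, the third class then held 35.3% (24.1 to 47.8%), an interval that includes the 24.9% of the background. Its lowest class stayed at 13.2% (6.23 to 23.6%), an interval below the 25.1% of the background, which is again set by the cut. The width classes moved likewise. With the stretch, the widest class (above 562.5 bp) held 28.0% of the X peaks and 27.9% of those of 4. Without it the bound was 504 bp, and the class held 36.6% of X (29.2 to 44.5%) and 30.9% of 4 (20.2 to 43.3%). The background share of that class, set by the cut, was 25.1%, below the interval of X and inside that of 4. With the stretch, X thus exceeded the background little in strong and wide peaks, at 26.8 and 28.0% against 25.1%. Both intervals of X then included that share. Without the stretch the excess was larger, at 34.1 and 36.6%, so its size depended on the choice of background.

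**Figure D4:**
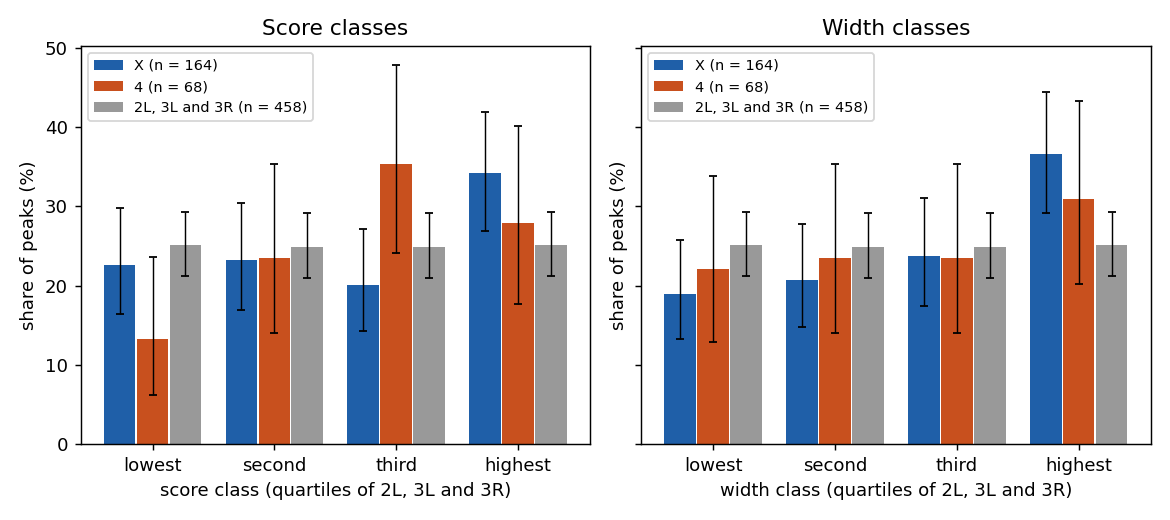
Share of peaks (vertical axis, percent) in 4 classes of score (left) and width (right), set at the quartiles of the 458 peaks of 2L, 3L and 3R outside the dense stretch of 2L; bars are X, chromosome 4 and that background, with exact 95% intervals. X holds 34.1% and 36.6% in the highest classes of score and width, and chromosome 4 holds 13.2% in the lowest score class. The shares of the background are set by its own quartiles.

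Median widths of X and 4 were within each other's intervals, and the widest peaks were on X. The median width was 401.5 bp on X (361 to 455) and 377.5 bp on 4 (321 to 459), beside 435 bp on 2L, 328 bp on 3L and 355 bp on 3R. Above 1 kb there were 10 peaks on X (6.10%, 2.96 to 10.9%) and 1 on 4 (1.47%, 0.0372 to 7.92%), shares whose intervals overlap. Above 2 kb there were 4 on X and 0 on 4. The 5 widest peaks of X, from 1568 to 2858 bp, were all among its 10 highest, with scores from 71.84 to 92.18. Of the 5 widest of 4, from 861 to 1261 bp, 4 were among its 10 highest. The exception, at 199915 to 200846, was 932 bp wide with a score of 23.27. At the narrow end, 8 peaks of X and 3 of 4 were at most 210 bp wide, and the narrowest of the 5 chromosomes and arms was 201 bp.

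Wider peaks had the higher scores on both chromosomes. Score and width had a Spearman correlation of 0.685 across the 164 peaks of X and 0.637 across the 68 of 4. It was 0.757 on 2L, 0.737 on 3L and 0.594 on 3R, so both lay within the range of the background arms. These are correlations across peaks of 1 list, which share the same libraries and caller, and they are descriptions. Several of the strongest peaks were narrow for their score: the highest peak of X was its fifteenth widest, with 861 bp, and the highest of 4 its ninth, with 751 bp.

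**Figure D5:**
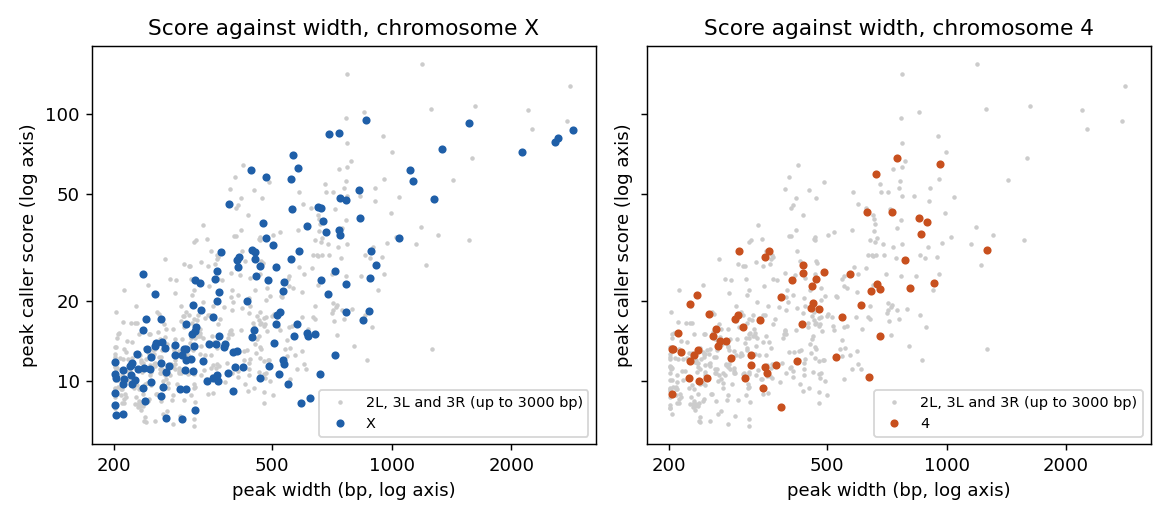
Peak caller score (vertical, log axis) against peak width in bp (horizontal, log axis) for X (left) and chromosome 4 (right), with the background peaks of 2L, 3L and 3R up to 3000 bp in grey; 21 wider background peaks are not drawn. Score rises with width on both, with Spearman correlations of 0.685 and 0.637, and of these 2 chromosomes X alone has peaks above 2 kb.

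The gene content of the 2 chromosomes differs as well. The release 6 gene table lists 2705 genes on X and 114 on 4. Those counts are the only use made of the table besides the chromosome of the pathway genes, and whether the peaks of 4 lie at its genes or at its repeats was not tested. How reads from repeated sequence were placed, which bears on peak heights there, is not given in the sources used here.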

How the data were processed

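Chromatin of Drosophila melanogaster embryos (2 ChIP and 2 input libraries) was sequenced, and the authors deposited 1 peak list. Per the file headers, coordinates are FlyBase release 5 and the source is MACS. BDGP5 as the build, and BWA, MACS2 and CASAVA (1.7.0.2, 1.7.0.3) as tools, are named per the submitters' processing notes. The score of each peak is the deposited value of the authors' caller; its scale, the threshold and the pooling of replicates were not stated. Other coordinate columns are 1-based positions.

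Peaks on X and 4 were selected by chromosome name and compared with 2L, 3L and 3R. Computed from the list were widths, end-to-start gaps, groups joined at 1 kb and 10 kb, densities over the span from first to last peak, exact (Clopper-Pearson) 95% intervals of shares and of density ratios, and medians with exact order-statistic intervals, in Python 3.11.15 with numpy 2.4.6, pandas 2.3.3 and scipy 1.17.1. The functions were tested on simulated peaks. No p-value was computed, because no value per library exists. The named peaks are, by rule, the 10 highest and 5 widest of each chromosome, groups of 3 or more within 1 kb, the largest group within 10 kb, the 3 fullest windows, the 3 longest empty stretches, and the first and last peak. The 3 pairs named on chromosome 4, its groups of 4 peaks and the lowest peak of X were added after their values were seen. Members, classes and rule were chosen with earlier results of these data known. Motif searches in promoters, planned for the case that promoter sequences were given, were not run. Alternatives are in the closing section.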

Additional observations from a re-analysis of the deposited data

How the results depend on the processing

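No paired analysis was possible because the replicate numbers belong to libraries that have no values in the peak list. Of 49 values recomputed for 13 results, 26 stayed within the interval of the reported value and 23 moved outside it. The density of 4 relative to X, 7.22, was 5.21 with gaps of up to 10 kb merged and stayed within its interval otherwise. The share of peaks with a close neighbour follows the distance by construction: for X it was 10.4, 28.7 and 37.2%, and for 4 it was 17.6, 57.4 and 69.1%, at 500 bp, 5 kb and 10 kb. At 5% of the mean spacing, added after the data were seen, it was 34.1% on X. Among the highest 25% of scores it was 4.55% on X and 0% on 4 (0 of 14, which allows up to 21.4% by the limit of 3 counts and 23.2% by the exact interval), where fewer peaks are left to be neighbours. Against 3L and 3R alone, the highest score class held 36.0% of X and 33.8% of 4, and the widest class 39.6% of X; without the dense stretch of 2L the widest class held 36.6% of X. With close peaks merged, the widest class held 45.5% of 4, since merging widens pairs. The median gap was 108 kb on X and 23.1 kb on 4 over gaps above 10 kb, 137 and 18.7 kb among the highest 50% of scores, and 360 and 94.0 kb among the highest 25%, sets with fewer peaks. Among the highest 25%, the last of 5 equal segments of X held 27.3% of its peaks and the first of 4 held 7.14%; the cause was not tested. Both correlations of score with width stayed within their approximate intervals, 0.583 to 0.766 on X and 0.452 to 0.770 on 4. The number of peaks on 4 and the lack of values per library limit all comparisons.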
